A study of Mus musculus with 6 samples.

Results

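The genes described here are 52 mouse genes of the mitotic spindle and of the passage through the G2 and M phases of the cell cycle, taken as a list of gene symbols and sorted into 8 roles. Probe sets annotated to 1 gene measured 49 of the 52, out of 12393 named genes on the array. Ccnb1, Espl1 and Fbxo5 were not analysed here, because no probe set was assigned to them alone. The 49 genes had 88 probe sets, 25 genes had more than 1, and the brightest probe set stood for each gene. On average over the arrays, 48 of the 49 genes exceeded a background of log2 2.15, set by bacterial control probe sets, and 43 exceeded it by more than 2 log2 units. Cenpe did not exceed it.

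Transcripts were measured on 6 Affymetrix Mouse430A_2 arrays, whose probe sets are groups of short probes that report transcript abundance. The groups were 3 arrays of spermatogonial stem cells, captured on magnetic beads as cells positive for human CD4, and 3 of total testicular cells. Both groups came from Stra8-CD4HAglo (CD4HAglo transgenic) mice, in which a shortened Stra8 promoter drives a surface protein with human CD4 domains. Each stem cell preparation pooled 50 males, so animals cannot be told apart, and strain and age are not given in the sources used here. The total testicular samples carry that name in their titles, whereas their source field calls them CD4-negative, so whether they retained stem cells is unclear. The labels do not say that the arrays of a group came from separate preparations, and the p-values measure the spread between these arrays, which may be technical.

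Over all probe sets, correlations within a group were 0.970 to 0.984 for the stem cell arrays and 0.992 to 0.995 for total testicular cells, with stem cell replicate 1 standing apart from the others. That array also had the highest mean on hybridization controls, 8.96, against 8.37 to 8.51 on the other 5. Of 15 markers of undifferentiated spermatogonia, 1 exceeded background by more than 2 log2 units and 0 passed the test. Stem cells minus total testicular cells was negative for 8 of the 15 and positive for 7. Id4, the 1 marker more than 2 log2 units above background, was lower in stem cells without overlap (log2 difference −0.55, limma adjusted p = 0.232). Zbtb16, a transcription factor of undifferentiated spermatogonia, had 2.38, 2.33 and 2.84 in stem cells, against 3.06, 2.96 and 2.83 in total testicular cells. Its groups overlapped, within 2 log2 units of background. The smallest p of the 15 belonged to Itga6, which was higher in stem cells without overlap (log2 difference 0.99, limma adjusted p = 0.0739), within 2 log2 units of background. Of 15 macrophage markers, 10 rose in stem cell arrays (limma, adjusted p under 0.05, where 1.63% of all named genes rose), among them Csf1r, the receptor of a macrophage growth factor, with a log2 difference of 4.76 (adjusted p = 0.00488).

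Entry into mitosis is driven by the kinase CDK1 bound to A- and B-type cyclins and switched on by CDC25 phosphatases. Polo, Aurora and NEK kinases then build the spindle, the spindle checkpoint delays anaphase until kinetochores are attached to microtubules, and the anaphase-promoting complex (APC/C) ends mitosis by marking cyclin B and securin for destruction. In the testis the same machinery serves both the mitotic divisions of spermatogonia and the meiotic divisions of spermatocytes. Many of these genes are transcribed late in the cycle through a CCAAT box and a cell cycle homology region in their promoters.

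Most of these genes had lower values on the stem cell arrays, but no single gene passed the test. The difference, stem cells minus total testicular cells on the log2 scale, was negative for 40 of the 49 genes, where 57% of all named genes were negative, and its median was −0.35, against −0.05 over all named genes. At an adjusted p under 0.05 (limma, Benjamini-Hochberg over all probe sets) 0 genes were lower, where 0.137% of all named genes were, and 0 were higher, where 1.63% were. At an unadjusted p under 0.05, 15 were lower (30.6%, where 13.1% of all named genes were) and 1, Cenpa, was higher (where 11.8% were). An ordinary unmoderated test called 0 members after adjustment, where it called 0 of all named genes. Before adjustment it had 6 members lower (where 8.38% of all named genes were) and 2 higher (where 8.29% were). All 3 stem cell arrays lay below all 3 total testicular cell arrays for 21 members (42.9%, where 19.2% of all named genes did), and above them for 2, Cenpa and Cks1b (where 13.8% did). The 12 smallest p-values belonged to Cdc25c, Cenpa, Tpx2, Nusap1, Kif20a, Ndc80, Smc2, Nek2, Incenp, Aurkb, Plk4 and Cdc25a. In each of the 12 the groups did not overlap, which choosing small p-values with 3 arrays per group favours. These arrays measure mixtures of cells, in which fewer cells of a type and less RNA per cell cannot be told apart.

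**Figure D1:**
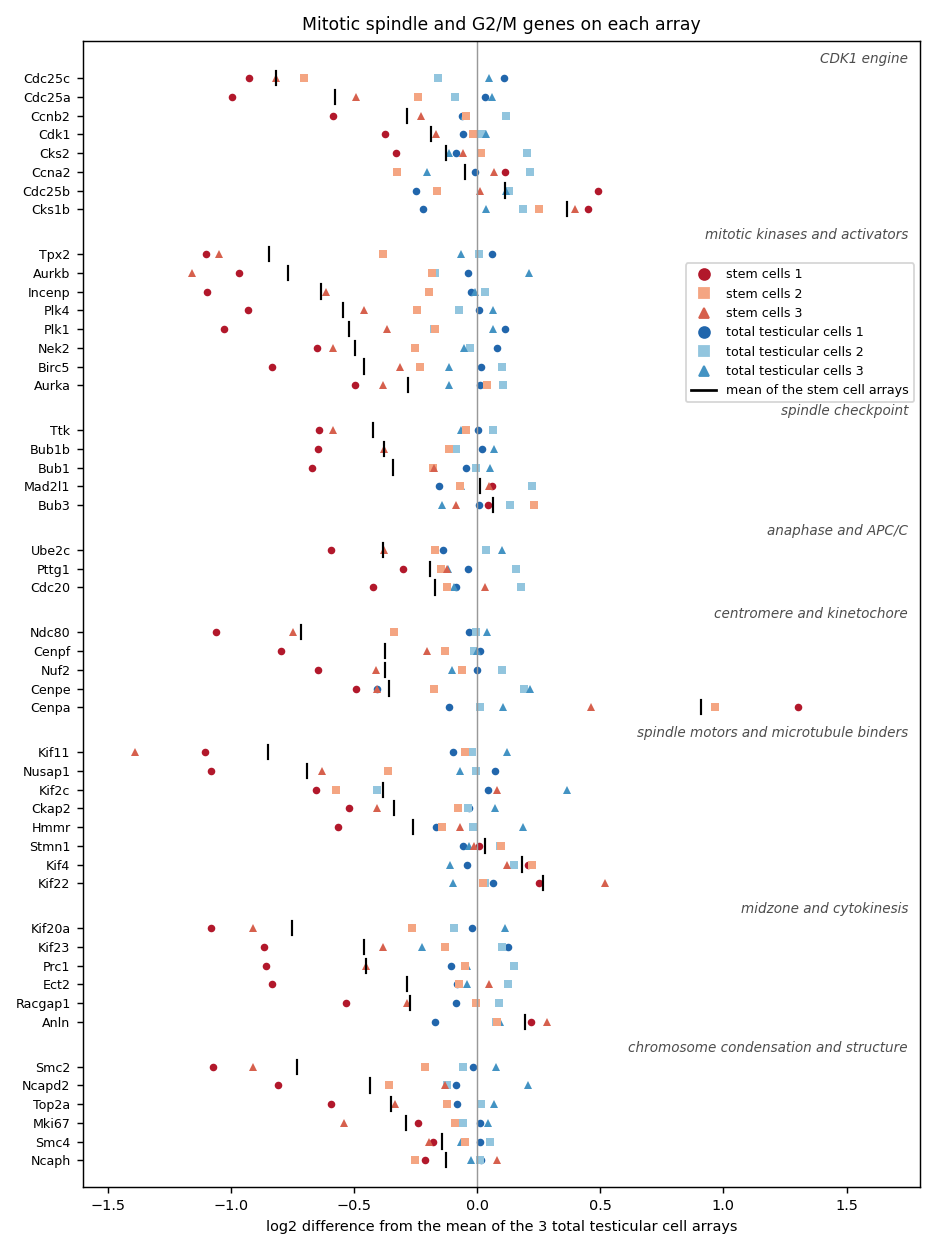
The 49 measured genes by role, one row per gene; the horizontal axis is log2, counted from the average of total testicular cells as 0, symbols are single arrays and the black bar is the mean of the 3 stem cell arrays. Stem cell replicate 1 (dark red circles) was the lowest of the 6 arrays for 34 genes, and 40 of the 49 bars lie left of 0.

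The stem cell arrays differed among themselves. With each gene's average in total testicular cells set to 0, the median over the 49 genes came to −0.59, −0.13 and −0.31 for stem cell replicates 1, 2 and 3, against −0.03, 0.03 and 0.00 for total testicular replicates 1, 2 and 3. Over all named genes the medians of stem cell replicates 1, 2 and 3 were −0.09, −0.06 and 0.00. Stem cell replicate 1 was the lowest of the 6 arrays for 34 of the 49 genes, and replicate 2 was the highest stem cell array for 34. On replicate 2, 31 of the 49 genes were within 0.2 log2 units of the total testicular mean. The standard deviation within the stem cell group exceeded that within total testicular cells for 41 genes, with a median of 0.28 against 0.11. Over all named genes those medians were 0.24 and 0.13. The counts of 34, 34, 31 and 41 are not given over all named genes, so they do not set the 49 genes apart. Without stem cell replicate 2, 11 genes were lower at adjusted p under 0.05 (where 4.25% of all named genes were) and 27 at unadjusted p (where 18.6% were). Those 11 were Cdc25c, Tpx2, Nek2, Aurkb, Incenp, Ttk, Ndc80, Kif11, Nusap1, Kif20a and Smc2. Without stem cell replicate 1, 0 were lower after adjustment (where 0.178% were), 12 were lower at unadjusted p (where 9.39% were), and the median was −0.24. Without stem cell replicate 3, Cdc25c was lower (where 0.75% were) and Cenpa higher (where 6.42% were) after adjustment. Without total testicular replicate 3, 8 were lower at unadjusted p (where 5.63% were). Centring the arrays on hybridization controls put 4 members past the threshold as lower (Cdc25c, Tpx2, Aurkb and Kif11, where 1.78% of all named genes were).

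The file headers place the arrays in 3 fluidics rounds on 4 modules. In the first round, stem cell replicate 1 ran with total testicular replicates 1 and 3, and the median difference was −0.59. In the third round, stem cell replicate 2 ran with total testicular replicate 2, and the median was −0.17. The second round held stem cell replicate 3 alone and gives no within-round value. On the single module that held both groups, stem cell replicate 2 minus total testicular replicate 3 gave a median of −0.14. Negative differences numbered 39, 42 and 36 of the 49 genes in the first round, the third round and the shared module, where 58.1%, 58.8% and 56.5% of all named genes were negative. These 3 comparisons are not independent, since stem cell replicate 2 and total testicular replicate 3 each enter more than 1 of them, and they carry no test.

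The CDK1 engine comprised 8 measured genes, of which 6 were negative, where 57% of all named genes were, and the median difference was −0.16. Before adjustment (unadjusted p under 0.05) 2 were lower, where 13.1% of all named genes were. Each role holds few genes, and no test was made of any role. Cdc25c, the phosphatase that removes inhibitory phosphates from CDK1, had 3.71, 3.94 and 3.82 in stem cells, against 4.75, 4.48 and 4.69 in total testicular cells. The groups were separated, with a difference of −0.81 ± 0.17 (SE, n = 3 each, limma adjusted p = 0.0567), which is 1.76-fold higher in total testicular cells. Cdc25a, which acts at G1/S as well, had 5.45, 6.20 and 5.95 in stem cells, against 6.47, 6.35 and 6.50 in total testicular cells, a difference of −0.58 (adjusted p = 0.151). Again no stem cell array reached a total testicular one. The kinase itself, Cdk1, had 7.23, 7.59 and 7.44 in stem cells, against 7.55, 7.63 and 7.64 in total testicular cells, and its B-type cyclin Ccnb2 had 8.62, 9.16 and 8.98 in stem cells, against 9.14, 9.32 and 9.15 in total testicular cells. Both overlapped between groups, with differences of −0.19 and −0.28 and adjusted p-values of 0.478 and 0.302. Ccna2, cyclin A2, had 4.01, 3.57 and 3.97 in stem cells, against 3.89, 4.11 and 3.69 in total testicular cells (difference −0.05, adjusted p = 0.909), within 2 log2 units of background, and its second probe set had a difference of 0.52. Cks1b and Cks2 encode small subunits that help CDK complexes reach phosphorylated substrates. Cks1b had 5.86, 5.66 and 5.80 in stem cells, against 5.19, 5.59 and 5.44 in total testicular cells without overlap (difference 0.37, adjusted p = 0.243). Cks2 had 9.24, 9.59 and 9.52 in stem cells, against 9.49, 9.78 and 9.46 in total testicular cells (difference −0.12, adjusted p = 0.631), with overlap. Cdc25b, the third phosphatase of the family, had a difference of 0.11, within 2 log2 units of background.

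The mitotic kinases and their activators held 7 of the 15 members that were lower at an unadjusted p under 0.05, where 13.1% of all named genes were. All 8 kinases and activators were negative, where 57% of all named genes were, with a median of −0.53. In 6 the stem cell arrays lay below without overlap, where 19.2% of all named genes did. Tpx2, which activates Aurora A on spindle microtubules, had 5.78, 6.50 and 5.83 in stem cells, against 6.94, 6.89 and 6.82 in total testicular cells. Replicate 2 lay between the other stem cell arrays and the total testicular cells, and the difference was −0.84 ± 0.21 (SE, n = 3 each, adjusted p = 0.0783), or 1.79-fold higher in total testicular cells. A second, dimmer Tpx2 probe set gave −0.04. Aurka, Aurora A itself, had 8.88, 9.41 and 8.99 in stem cells, against 9.38, 9.47 and 9.26 in total testicular cells (difference −0.28, adjusted p = 0.313), with overlap between the groups. The chromosomal passenger complex, which corrects faulty kinetochore attachments, is represented by its kinase, its scaffold and survivin. Its kinase Aurkb had 3.19, 3.98 and 3.00 in stem cells, against 4.12, 3.99 and 4.37 in total testicular cells, with stem cell replicate 2 just below the lowest total testicular value (difference −0.77 ± 0.26, adjusted p = 0.136). On average over the arrays Aurkb lay within 2 log2 units of background. Incenp, the scaffold, had 7.03, 7.93 and 7.51 in stem cells, against 8.11, 8.16 and 8.12 in total testicular cells (difference −0.64, adjusted p = 0.131). Birc5, also called survivin, had 7.36, 7.96 and 7.88 in stem cells, against 8.20, 8.29 and 8.07 in total testicular cells (difference −0.46, adjusted p = 0.173). On these brightest probe sets the stem cell arrays lay below the total testicular ones in all 3 subunits, where 19.2% of all named genes did. The second Aurkb probe set, at −0.565, overlapped between groups. Of the other Incenp probe sets, 1 at −0.90 overlapped and 1 at −0.405 did not.

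Of the Polo and NEK kinases, each was lowest on stem cell replicate 1. Plk4, which starts centriole duplication, had 6.40, 7.08 and 6.87 in stem cells, against 7.33, 7.25 and 7.39 in total testicular cells (difference −0.55, adjusted p = 0.144). Nek2, which separates centrosomes, had 6.61, 7.01 and 6.67 in stem cells, against 7.34, 7.23 and 7.21 in total testicular cells (difference −0.50, adjusted p = 0.126). Plk1, the Polo-like kinase that acts at many steps of mitosis, had 6.52, 7.38 and 7.18 in stem cells, against 7.66, 7.37 and 7.61 in total testicular cells. Here stem cell replicate 2 was just above total testicular replicate 2, so the groups overlapped (difference −0.52, adjusted p = 0.202).

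**Figure D2:**
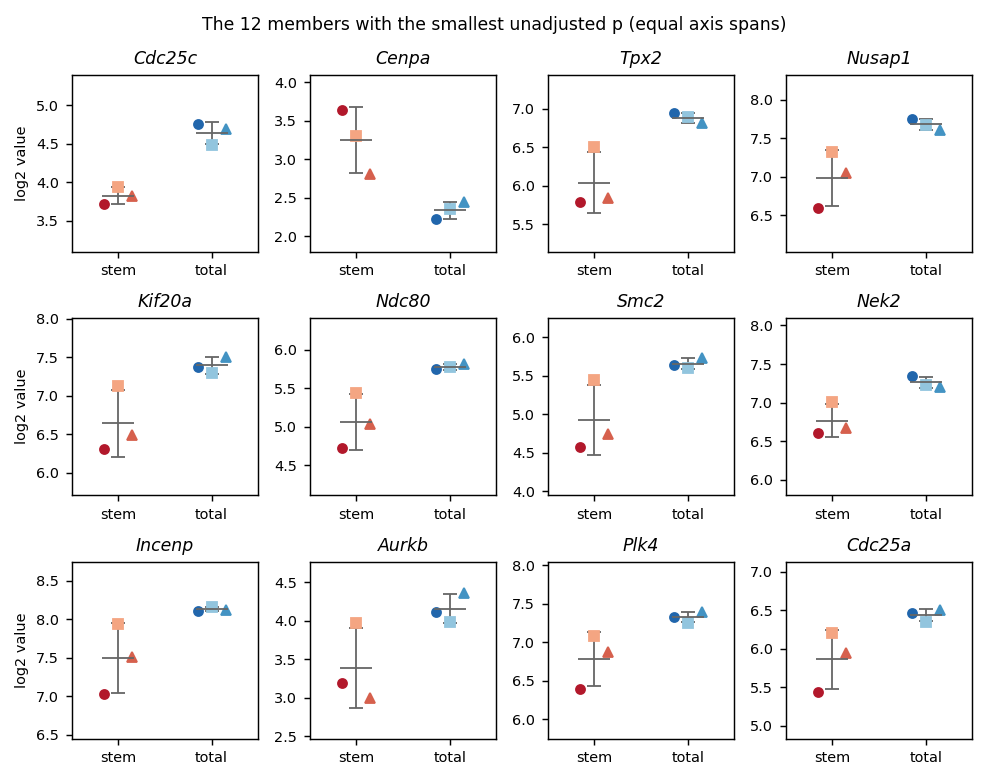
The 12 measured genes with the smallest unadjusted p, with the log2 value on the vertical axis and stem cells (red) to the left of total testicular cells (blue) in each panel; circles, squares and triangles are replicates 1, 2 and 3, and bars are means ± SD (n = 3). Cenpa is the panel with stem cells above, and in the other 11 the square of stem cell replicate 2 is the highest stem cell value.

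Of the 5 spindle checkpoint genes, 3 were negative and 1, Ttk, was lower at an unadjusted p under 0.05. Over all named genes 57% were negative and 13.1% were lower before adjustment, so these counts are near those shares. Bub1b, whose product BubR1 inhibits the APC/C, had 6.58, 7.11 and 6.85 in stem cells, against 7.25, 7.14 and 7.30 in total testicular cells, without overlap (difference −0.38, adjusted p = 0.222). Ttk and Bub1, kinases that act at the kinetochore, had differences of −0.42 and −0.34. Mad2l1 and Bub3, partners of BubR1 in the checkpoint complex, had 0.01 and 0.06. A second Bub3 probe set more than 2 log2 units above background gave −0.41 (limma adjusted p = 0.316), with overlap. All 3 measured genes of anaphase and the APC/C were negative (where 57% of all named genes were), with 0 at an unadjusted p under 0.05. Cdc20, the APC/C activator, had 9.13, 9.43 and 9.58 in stem cells, against 9.46, 9.73 and 9.46 in total testicular cells (difference −0.17, adjusted p = 0.516), and the groups overlapped. Ube2c, a ubiquitin-conjugating enzyme of the APC/C, and Pttg1, which encodes securin, had −0.38 and −0.19.

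Of 5 centromere and kinetochore genes 4 were negative, with 1, Ndc80, lower and 1, Cenpa, higher before adjustment. Over all named genes 57% were negative, and 13.1% were lower and 11.8% higher before adjustment. Cenpa, the histone H3 variant that marks centromeres, had 3.65, 3.31 and 2.80 in stem cells, against 2.23, 2.35 and 2.45 in total testicular cells. Every stem cell array was above every total testicular one (difference 0.91 ± 0.21, adjusted p = 0.067), and the total testicular values lay within 1 log2 unit of background. With the fluidics round as a block, in which stem cell replicate 3 has a round of its own and drops out of the estimate, the Cenpa difference was 1.16 (adjusted p = 0.0146), where 5.8% of all named genes were higher. With the module as a block the Cenpa difference was 0.86, which rests on stem cell replicate 2 and total testicular replicate 3 alone. Ndc80, part of the complex that binds microtubules at the outer kinetochore, had 4.72, 5.44 and 5.03 in stem cells, against 5.75, 5.78 and 5.82 in total testicular cells, the opposite order without overlap (difference −0.72 ± 0.21, adjusted p = 0.101). Its partner Nuf2 had a difference of −0.37, and Cenpf, another outer kinetochore protein, −0.38. Cenpe, a kinetochore motor, had −0.36, at background.

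Among 8 spindle motors and microtubule binders 5 were negative (where 57% of all named genes were). Of these, 2 had an unadjusted p under 0.05, where 13.1% of all named genes were lower. Nusap1, which bundles microtubules near chromosomes, had 6.60, 7.32 and 7.05 in stem cells, against 7.75, 7.67 and 7.61 in total testicular cells, without overlap (difference −0.69 ± 0.19, adjusted p = 0.0956). Kif11, the motor that pushes spindle poles apart, had the most negative difference of all members, −0.85 (adjusted p = 0.156), on its brightest probe set, and −0.20 and −0.16 on the others. Kif2c, a microtubule depolymerase, had −0.38, the spindle-associated Ckap2 −0.34 and Hmmr −0.26. The chromosome-binding motors Kif4 and Kif22 had 0.18 and 0.27, but the other Kif22 probe sets gave −0.71 (adjusted p = 0.157) and −0.53 (adjusted p = 0.131), both without overlap. Kif4 lay within 2 log2 units of background. Stmn1, a tubulin-binding protein that destabilises microtubules, had 9.82, 9.91 and 9.80 in stem cells, against 9.75, 9.90 and 9.78 in total testicular cells (difference 0.03, adjusted p = 0.888), with overlap. Its second probe set gave −0.42 (adjusted p = 0.187) without overlap.

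Of 6 genes of the spindle midzone and cytokinesis, 5 were negative, where 57% of all named genes were. Kif20a, a motor that carries passenger proteins to the midzone, had 6.31, 7.13 and 6.49 in stem cells, against 7.37, 7.30 and 7.51 in total testicular cells, without overlap (difference −0.75 ± 0.22, adjusted p = 0.101). Kif23 and Racgap1, the subunits of centralspindlin, had −0.46 and −0.27. Prc1, which crosslinks midzone microtubules, had −0.45, and Ect2, the activator of RhoA at the cleavage furrow, −0.29. Anln, the actin-binding anillin, had 0.20. All 6 genes of chromosome condensation and structure were negative, with 1, Smc2, at an unadjusted p under 0.05 (where 13.1% of all named genes were lower). Smc2, a core condensin subunit, had 4.58, 5.44 and 4.75 in stem cells, against 5.64, 5.60 and 5.73 in total testicular cells (difference −0.73 ± 0.23, adjusted p = 0.121). Its condensin partners Smc4, Ncapd2 and Ncaph had −0.14, −0.43 and −0.13. The other Smc4 probe sets gave −0.51 (limma adjusted p = 0.168) without overlap and −0.62 (adjusted p = 0.146) with overlap. Top2a, which untangles sister DNA, had 7.32, 7.79 and 7.58 in stem cells, against 7.83, 7.93 and 7.98 in total testicular cells (difference −0.35, adjusted p = 0.223), and the proliferation antigen Mki67 had 5.03, 5.17 and 4.72 in stem cells, against 5.28, 5.21 and 5.31 in total testicular cells (difference −0.29, adjusted p = 0.356). Neither overlapped between groups, and replicate 2 was again the stem cell array nearest to total testicular cells.

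Different probe sets of 1 gene did not always give the same size of difference. Of the 88 probe sets 75 were negative, where 55% of all 22626 tested probe sets were, and 0 passed the test, where 1.55% did. Before adjustment 34 were lower, where 12.1% were, and 3 were higher, where 11.4% were. Probe sets of both signs occurred in 6 of the 25 genes that had more than 1. In 14 of the 25 genes the brightest probe set was the least negative. In 15 genes more than 1 probe set exceeded background by over 2 log2 units, and in 13 of these the brightest was the least negative. The same counts over all named genes are not given here. Pttg1 ranged over its probe sets between −1.02 and −0.19, Plk4 between −1.18 and −0.55 and Incenp between −0.90 and −0.40.

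**Figure D3:**
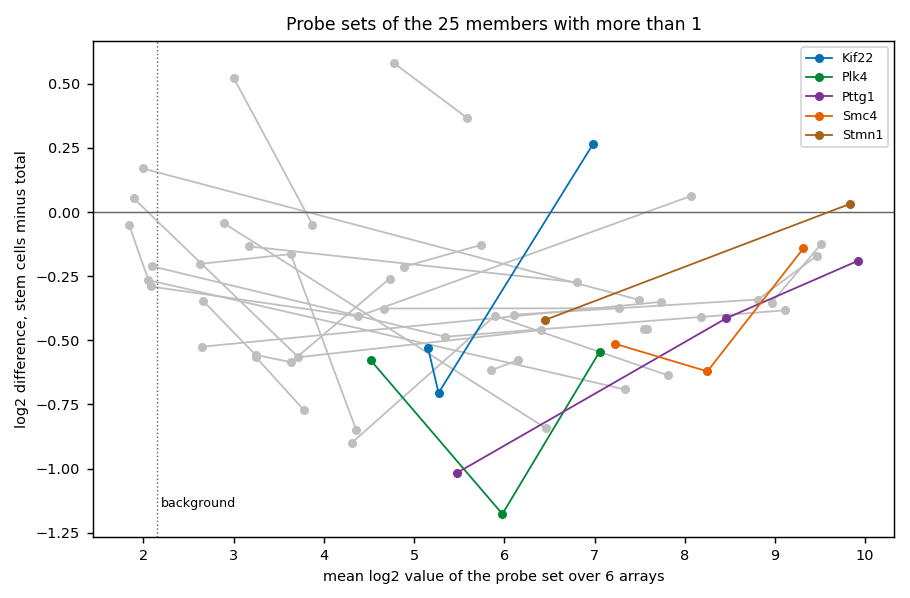
Log2 difference, stem cells minus total testicular cells (vertical axis), against the mean log2 value over the 6 arrays (horizontal axis) for the probe sets of the 25 genes with more than 1; points are probe sets, lines join those of a gene, 5 genes are coloured and the dotted line is background. The coloured genes are examples picked by hand, in which the brightest probe set has the least negative or the positive difference, −0.55 for Plk4 and 0.27 for Kif22 for example. Over all 25 genes the brightest probe set was the least negative in 14.

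Other genes of the cycle were compared through lists. Over all named genes 57% were negative, 13.1% were lower and 11.8% higher before adjustment, and 19.2% were lower without overlap. After adjustment 0.137% were lower and 1.63% higher. Of 68 other measured mitotic genes, 57 were negative with a median of −0.29, 16 (23.5%) were lower and 2 higher before adjustment, and 0 passed after adjustment. The smallest p-values among them belonged to Anapc5, an APC/C subunit (0.58, adjusted p = 0.0761), Foxm1, the transcription factor that drives many G2/M genes (−0.80, adjusted p = 0.093), and Zw10, a checkpoint protein of the kinetochore (−0.58, adjusted p = 0.0997). Of 12 germline paralogues and meiotic partners, 9 were negative with a median of −0.38. Before adjustment 6 (50.0%) were lower and 0 higher, 6 were lower without overlap, and 0 passed after adjustment. Ccna1, the cyclin A of spermatocytes, had 7.34, 8.01 and 7.94 in stem cells, against 8.27, 8.35 and 8.23 in total testicular cells (difference −0.52, adjusted p = 0.151). Aurkc, the germline Aurora kinase, had a difference of −0.41 (adjusted p = 0.278), and Ccnb3, the meiotic B-type cyclin, 0.13 at a level below background. Of 26 genes of G1/S and replication, 12 were negative with a median of 0.02. Before adjustment 4 (15.4%) were lower, near the share of all named genes, and 3 were higher. After adjustment 0 passed. No test was made between these lists.

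**Figure D4:**
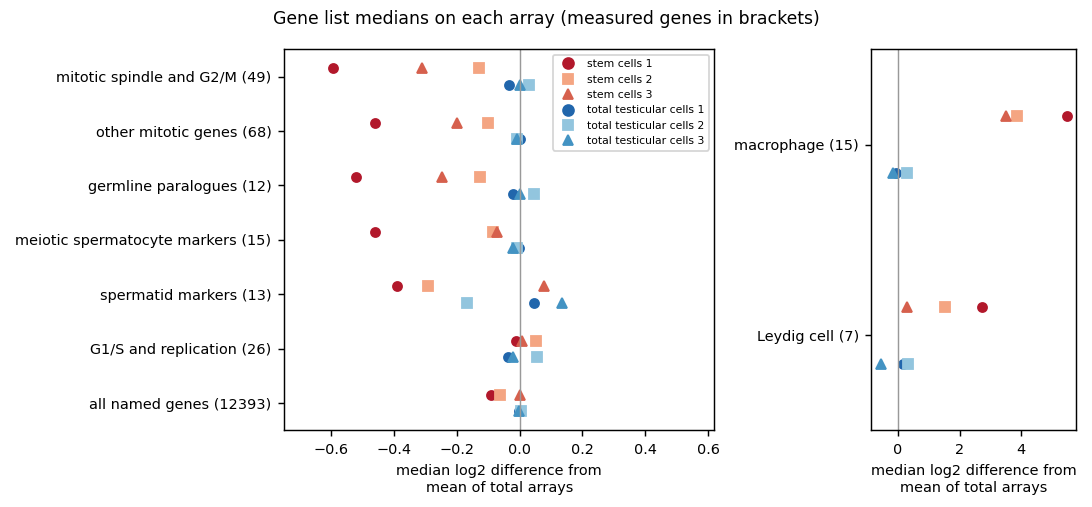
Median of each gene list on each array (horizontal axis, log2, with the average of total testicular cells as 0), stem cell arrays in red and total testicular cells in blue; the right panel has a wider axis, and numbers in brackets are measured genes. Mitotic and meiotic lists sit left of 0 on all 3 stem cell arrays, macrophage markers sit between 3.52 and 5.50, and G1/S genes lie near 0.

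Markers of other cells moved alongside. Over all named genes 57% were negative, 13.1% were lower and 11.8% higher before adjustment, and 1.63% rose past the threshold. The 10 macrophage markers that rose were Csf1r, Cd68, Mrc1, Lyz2, Adgre1, Tyrobp, C1qa, C1qb, C1qc and Ctss, with log2 differences of 2.72 (Adgre1) to 4.76 (Csf1r). None of these was at background in total testicular cells, but Cd163 was below background on all 3 total testicular cell arrays. The 15 markers summed to 11274, 4492 and 3799 linear units on stem cell replicates 1, 2 and 3, against 1186 to 1283 on total testicular cell arrays, with a median difference of 4.34. The stem cell array with the largest macrophage sum was the one with the lowest mitotic median, while replicate 2 had both a larger macrophage sum and a higher mitotic median than replicate 3. All 7 Leydig cell markers were positive, and all 7 were higher at an unadjusted p under 0.05 (where 11.8% of all named genes were). Of them 5 were higher without overlap (where 13.8% were), and 0 passed the threshold after adjustment. The 7 Leydig cell markers summed to 1149 to 3945 units in stem cells, against 578.5 to 1044 in total testicular cells. Of 15 markers of meiotic spermatocytes, 11 were negative, 6 (40.0%) were lower and 1 was higher before adjustment, and 0 passed. Some, Ccna1 for example, are also in the list of germline paralogues, so these lists are not independent. The 15 spermatocyte markers summed to 8643 to 10628 units in stem cells, against 11113 to 11257 in total testicular cells. The synapsis gene Sycp3 had a difference of 0.02. Of 13 haploid spermatid markers 12 were negative, 0 passed, and the sums overlapped, at 36542 to 46032 units in stem cells and 37505 to 46853 in total testicular cells. The protamine gene Prm1 had −0.05. Of 6 measured markers of differentiating spermatogonia 0 passed, and the receptor Kit and the retinoic acid target Stra8 had 0.16 and 1.01, the second with an adjusted p of 0.0832. Among Sertoli cell markers 1 of 11, Clu, rose past the threshold. Of 7 genes listed for lymphocytes 2 did, Ighm and Ptprc, and Ptprc is not restricted to lymphocytes. The median difference of these 7 was 0.095, and 1 of them exceeded background by more than 2 log2 units. Myoid (7), endothelial (7) and erythroid (4) markers had 0 past the threshold. The summed level of the 49 mitotic genes was 7786, 9929 and 9264 linear units on stem cell replicates 1, 2 and 3, against 10455, 11071 and 10493 on total testicular replicates 1, 2 and 3. The part of any of these cell types in the mitotic differences was not tested.

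The promoters were read as a description of what the genes share beyond their function. RefSeq promoter windows of GRCm38.p6, 250 bases before to 50 after the start of transcription, were found for 44 of the 52 genes. Both strands were searched for CCAAT, the core of the CCAAT box, and for TTTGAA, a core of the cell cycle homology region. CCAAT was found in 34 of the 44 (77.3%, Wilson 95% interval 63.0 to 87.2), against 42.3% of 9887 genes on the array and 41.1% of all 27025 windows. TTTGAA was found in 30 (68.2%, interval 53.4 to 80.0), against 15.4% of array genes and 20.2% of all windows. Both were found in 27 (61.4%), against 7.23% and 8.97%. TTTGAA was most frequent in the 25 bases after the start, in 22.7% of the genes against 0.84% of array genes, and CCAAT between 75 and 50 bases before it, in 31.8% against 8.90%. Among 72 windows of other mitotic genes, CCAAT was in 58.3%, TTTGAA in 45.8% and both in 30.6%. Among G1/S genes the shares were 68.2% for CCAAT and 13.6% for TTTGAA (22 windows), and among haploid spermatid genes 9.09% and 18.2% (11 windows). These shares are a description.

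**Figure D5:**
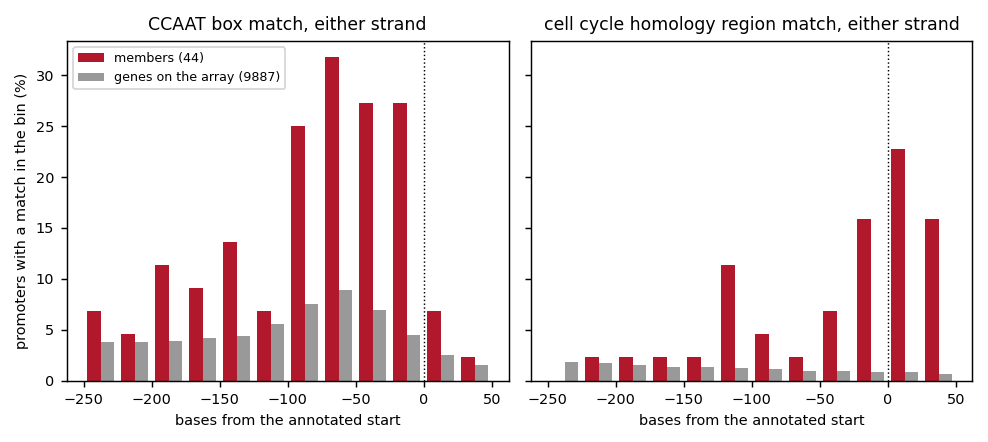
Share of promoters (vertical axis, percent) with a match in each 25-base bin, by distance from the transcription start (horizontal axis, bases), for CCAAT and TTTGAA on either strand, in 44 mitotic genes and in 9887 genes on the array. The mitotic genes peak at 22.7% for TTTGAA just after the start and at 31.8% for CCAAT between 75 and 50 bases before it.

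The promoters of 7 genes are shown, chosen after their values were seen, to set the letters beside the array differences. They run 5′ to 3′ along the gene's strand over 150 bases before and 50 bases after the start, from RefSeq on GRCm38.p6, with capitals marking each CCAAT or TTTGAA match (ATTGG or TTCAAA where it lies on the other strand). Ccnb2 lies on the minus strand at chr9:70421505-70421704, Plk1 on the plus strand at chr7:122159285-122159484, Smc2 on the plus strand at chr4:52439071-52439270 and Ndc80 on the minus strand at chr17:71526808-71527007. Cenpa lies on the plus strand at chr5:30666736-30666935, Cks1b on the minus strand at chr3:89418242-89418441 and Plk4 on the plus strand at chr3:40799801-40800000.
Ccnb2: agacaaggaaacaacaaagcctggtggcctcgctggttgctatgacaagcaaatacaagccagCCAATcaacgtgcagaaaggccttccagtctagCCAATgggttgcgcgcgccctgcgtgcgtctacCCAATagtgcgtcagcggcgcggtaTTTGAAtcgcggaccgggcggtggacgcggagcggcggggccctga
Plk1: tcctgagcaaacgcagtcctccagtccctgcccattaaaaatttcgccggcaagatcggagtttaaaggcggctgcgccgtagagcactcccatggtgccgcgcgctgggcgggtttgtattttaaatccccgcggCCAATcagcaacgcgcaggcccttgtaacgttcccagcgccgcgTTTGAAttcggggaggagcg
Smc2: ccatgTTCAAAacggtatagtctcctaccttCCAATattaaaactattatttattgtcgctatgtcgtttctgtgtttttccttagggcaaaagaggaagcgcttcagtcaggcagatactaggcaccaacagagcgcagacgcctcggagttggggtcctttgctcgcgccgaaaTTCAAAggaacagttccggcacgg
Ndc80: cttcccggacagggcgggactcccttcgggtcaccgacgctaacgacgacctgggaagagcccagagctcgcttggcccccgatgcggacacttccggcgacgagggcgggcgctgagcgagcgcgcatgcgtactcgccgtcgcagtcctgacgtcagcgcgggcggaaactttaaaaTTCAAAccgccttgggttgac
Cenpa: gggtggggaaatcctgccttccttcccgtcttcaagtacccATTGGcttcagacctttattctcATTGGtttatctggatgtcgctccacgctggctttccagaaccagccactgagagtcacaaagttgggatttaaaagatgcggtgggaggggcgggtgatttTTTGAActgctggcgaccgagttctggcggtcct
Cks1b: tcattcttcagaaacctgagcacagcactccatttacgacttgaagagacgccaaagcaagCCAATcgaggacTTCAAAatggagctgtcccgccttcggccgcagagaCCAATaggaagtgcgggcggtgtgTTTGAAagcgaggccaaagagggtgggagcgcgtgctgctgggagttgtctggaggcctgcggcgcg
Plk4: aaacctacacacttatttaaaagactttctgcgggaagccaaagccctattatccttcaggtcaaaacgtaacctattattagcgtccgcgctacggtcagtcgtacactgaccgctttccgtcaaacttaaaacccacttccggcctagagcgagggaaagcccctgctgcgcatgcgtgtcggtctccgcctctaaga

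Ccnb2 carries 3 CCAAT matches spaced 33 bases apart, followed by 1 TTTGAA near the start. Across the genes with promoters, 10 of 44 neighbouring pairs of CCAAT matches were 30 to 36 bases apart. Genes with lower values on stem cell arrays (Smc2, Ndc80) and genes with higher ones (Cenpa, Cks1b) both carry TTTGAA. Plk4, at −0.55, carries neither motif in its window, as do Birc5, Mad2l1, Ncaph, Nuf2, Nusap1 and Pttg1. Over the measured genes with a promoter, the median difference was −0.31 in 28 genes with TTTGAA and −0.36 in 13 without it, and −0.34 in 31 genes with CCAAT and −0.38 in 10 without it. These medians are close to each other and no test was made between them. A missing match says only that the letters are not in this window.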

How the data were processed

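Total RNA of 3 spermatogonial stem cell samples and 3 total testicular cell samples was converted to biotinylated probes, per the labels' protocols, and each sample had its own array. Used here are the log2 probe set summaries that the authors deposited. MAS5 and RMA are listed in the submitters' processing notes without version or role, so the sources used here do not say which made the values or with what normalization. Scanner intensities and detection calls were not used here. The 6 arrays came from 1 chip lot and were read on 1 scanner in 1 day, per the file headers.

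The log2 values were fitted with limma 3.58.1 (R 4.3.3) on 22626 probe sets, without 64 controls, using lmFit and a trended eBayes (two-sided, residual degrees of freedom 4, prior 5.21), with Benjamini-Hochberg adjustment over all of them and a threshold of 0.05. The annotation gave a single gene for 20380 of them, several for 691 and none for 1555, and genes were named only from the first kind; identifiers of 20351 were found in the reference gene table, which changed 0 symbols. Adjusted p-values of a gene are those of its brightest probe set. Background was the 95th percentile of the means of 27 bacterial control probe sets, and the number of arrays limits the precision. The procedure was tested on simulated data.

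The genes and lists were chosen with earlier results of these data known, so no p-value over a list is given. Values on every array are given for the 12 members with the smallest p and for the measured ones among 14 genes fixed by name (Ccnb1 was not analysed here), and for Cks1b, which was added after its values were seen. Of the other lists, genes past the threshold, the 3 smallest p of the other mitotic genes and 9 fixed genes are named. Itga6, Id4 and Cd163 are named in addition. Promoter windows came from RefSeq (GRCm38.p6), and a window of 100 bases before to 50 after the start was added after seeing the data. Whether replicate numbers pair the samples was checked from deviations around the group means, which correlated at −0.01, 0.01 and 0.30 for the 3 numbers, so they were not treated as pairs.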

Additional observations from a re-analysis of the deposited data

How the results depend on the processing

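The median difference of the 49 genes was negative under every alternative run, between −0.14 (fluidics module as a block) and −0.52 (arrays centred on hybridization controls). The module block rests on stem cell replicate 2 and total testicular replicate 3 alone, since no other module held both groups. Counts of genes past a threshold moved more. The share of all named genes called in the same direction under the same setting stands in brackets. After adjustment 0 members were lower in the reported analysis, against 1 with arrays centred on their median (Cdc25c; 0.371%), 4 with centring on hybridization controls (Cdc25c, Tpx2, Aurkb and Kif11; 1.78%), 2 with array weights (Cdc25c and Tpx2; 0.637%), 1 with the replicate block (Tpx2; 0.75%), and 0 to 11 when 1 array was left out. The count of higher members was 1, Cenpa, with the replicate block (5.2%), the round block (5.8%) and array weights (4.23%), and 0 to 1 when 1 array was left out. At unadjusted p the 15 lower members became 28 with median centring (21.6%), 6 with the ordinary test (8.38%) and 23 with the mean of all probe sets (13.8%). They became 5 at a threshold of 0.01 (2.85%), 0 with a log2 difference of at least 1 (0.387%), and 8 to 27 without 1 array. The 8 came without total testicular replicate 3 (5.63%). The 1 higher member became 2 with quantile normalization (11.2%), without the intensity trend (11.8%), with the ordinary test (8.29%) and with the mean of all probe sets (11.6%), 0 with a log2 difference of at least 1 (4.54%), and 1 to 2 without 1 array. Other mitotic genes past the threshold, lower or higher, numbered 1 of 68 with hybridization-control centring, with the round block and with array weights. Over the 12393 named genes those settings called 221, 48 and 79 lower and 516, 719 and 524 higher. Without 1 array the other mitotic genes past the threshold numbered 0 to 6. The 6 came without stem cell replicate 2, where 527 of all named genes were lower and 414 higher. The cause of these shifts was not tested.

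Median centring moved the median of all named genes to −0.16 and hybridization-control centring to −0.22, against −0.05. Genes called over the whole array were 17 lower and 202 higher, against 221 lower and 516 higher with hybridization-control centring. Whether replicate numbers pair the samples is not settled by the labels, and they were not treated as pairs. With the replicate block the calls over all named genes were 93 lower and 644 higher. The log2 difference of Ighm turned to −0.007 with the probe set of smallest difference. With the promoter window shortened to 100 bases before the start, CCAAT was in 70.5%, TTTGAA in 61.4% and both in 50.0% of the 44 promoters, against 28.2%, 6.40% and 2.50% of array genes. Few arrays, and probe sets near background such as Cenpe and Cenpa, limit what can be detected.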
